A study of Mus musculus with 4 samples.

Results

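The 40 mitotic and replication genes described here are proliferation genes that were named one by one. They were not picked by a threshold on their response, but earlier results of these data were known. They are 40 of the 48897 genes listed in the deposited count table, and all 40 were found in it by symbol. They comprise 10 genes of origin licensing and firing, 4 of the replication fork and its nucleotide supply, 8 cyclins, cyclin-dependent kinases and an activating phosphatase, 6 mitotic kinases, checkpoint and passenger proteins, 3 centromere and kinetochore genes, 5 of the spindle and cytokinesis, 2 partners of the anaphase-promoting complex, and 2 chromosome proteins used as marks of cycling cells. The study compared whole retinas of wild-type C57BL/6 mice after knockdown of the microRNA miR-124-3p (anti-miR-124 group, 2 libraries) with a negative control (NC group, 2 libraries) by mRNA sequencing. Pups were injected into the vitreous at postnatal day 3 (P3) with 0.6 nmol of oligonucleotide in 1 µl, the left eye receiving an antagomir against miR-124-3p and the right eye a scrambled oligonucleotide. Retinas were taken at P9, 6 days after the injection, and each group consisted of mixed retinas from at least 2 litters, with no statement of how litters were divided between its libraries. The paper reports a significant knockdown of the microRNA, measured by reverse transcription quantitative PCR before the sequencing. The knockdown could not be checked in the counts used here, because the count table covers genes and not mature microRNAs.

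The 4 libraries form 2 pairs, here called A and B, each with one anti-miR-124 and one NC library that carry the same number in the table. The labels do not say that a number ties both eyes of the same pups, so the pairs are used as a description and not as matched animals. All p-values below measure only the spread between these 4 libraries. Total counts ran from 16317239 (NC, pair A) to 18726963 (anti-miR-124, pair B). The 9 rod photoreceptor markers of the labelled tissue had a summed level of 8740 to 10224 TPM (a transcript level corrected for gene length and depth). Other markers set libraries apart. Lens genes, with 22 listed, made up 6.7% of all TPM in the pair A NC library and 0.0175% to 0.0235% in the others. In the pair B anti-miR-124 library, the summed TPM of 15 microglia and macrophage markers was 713 against 227 to 280 elsewhere, that of 5 astrocyte markers was 235 against 88.2 to 124 (of which Gfap alone was 162 against 28.5 to 69.1), and that of 7 leukocyte markers was 447 against 27.4 to 42.8. Of the 15 microglia and macrophage markers, 14 were highest in that library after scaling to library size. The exception was P2ry12, with 84 counts there against 72 to 89 in the others. Of the leukocyte list, Lyz2 carried nearly all of the sum in that library, at 440 TPM. Ptprc had 129 counts in that library against 28 to 31 in the others, and Ccr2 had 25 against 0 to 2, while Cd3e and Ly6c2 were at 0 counts in all 4 libraries. The summed TPM of 5 erythroid genes was 1592 in the pair A anti-miR-124 library against 404 to 745 elsewhere, and that of 7 pigment epithelium genes was 161 against 75.5 to 117. Because the tissue was measured in bulk, fewer cycling cells and less RNA per cycling cell cannot be told apart.

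A dividing cell first licenses its origins of replication by loading the MCM helicase in G1, fires them in S phase, and then builds a spindle and separates its chromosomes in M phase. Genes of the first phase are typically driven by E2F factors. Genes of G2 and mitosis are typically held down in resting cells by the DREAM complex, which binds a short promoter element, the cell cycle genes homology region (CHR), often close to CCAAT boxes bound by NF-Y. In the rodent retina, progenitors finish dividing in the first postnatal days, from the centre to the edge, with rods, bipolar cells and Müller glia as the last cells made, while glia and vascular cells may still divide. miR-124 is abundant in neurons, including photoreceptors, and a microRNA lowers mRNAs whose 3′ untranslated region (UTR) pairs with its seed, bases 2 to 8.

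The table of RefSeq promoters (GRCm38.p6, 300 bases from 250 before to 50 after the annotated start) held 32 of the 40 members. Gmnn, Mcm4, Ccne2, Ccna2, Cdc25c, Aurkb, Kif20a and Tpx2 were not among them. The motifs below were searched on both strands: the CHR as TTTGAA, the CCAAT box as CCAAT, and an E2F site as TTTNNCGC. E2F matches on opposite strands may overlap each other and were then counted separately. The promoters of 3 members are shown as examples of these arrangements, 5′ to 3′ along the gene, with every motif match in capitals: Aurka, the kinase that matures the spindle poles and the member with the highest fitted difference between the groups, Mki67, which encodes the Ki-67 proliferation antigen, and Mcm6, a subunit of the replicative helicase.
Aurka promoter, chr2:172370521-172370820, minus strand: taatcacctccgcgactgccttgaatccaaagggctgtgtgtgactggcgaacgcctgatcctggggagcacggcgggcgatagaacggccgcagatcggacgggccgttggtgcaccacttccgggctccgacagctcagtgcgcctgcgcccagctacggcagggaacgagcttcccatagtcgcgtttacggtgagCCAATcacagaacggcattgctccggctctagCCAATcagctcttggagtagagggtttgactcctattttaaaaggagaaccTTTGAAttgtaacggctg
Mki67 promoter, chr7:135716330-135716629, minus strand: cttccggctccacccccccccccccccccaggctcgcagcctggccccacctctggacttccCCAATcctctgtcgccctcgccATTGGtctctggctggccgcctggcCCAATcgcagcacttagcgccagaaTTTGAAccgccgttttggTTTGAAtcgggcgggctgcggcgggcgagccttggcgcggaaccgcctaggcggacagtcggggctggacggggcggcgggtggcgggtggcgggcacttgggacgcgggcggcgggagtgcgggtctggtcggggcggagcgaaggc
Mcm6 promoter, chr1:128359656-128359955, minus strand: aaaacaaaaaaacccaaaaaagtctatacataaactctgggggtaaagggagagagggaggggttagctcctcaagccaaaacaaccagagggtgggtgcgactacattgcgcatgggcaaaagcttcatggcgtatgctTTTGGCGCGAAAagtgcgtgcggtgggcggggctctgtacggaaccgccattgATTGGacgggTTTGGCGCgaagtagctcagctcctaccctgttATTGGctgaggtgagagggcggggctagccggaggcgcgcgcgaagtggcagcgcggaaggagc

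In these windows Aurka held 2 CCAAT boxes upstream of 1 CHR, and Mki67 held 3 CCAAT boxes, 1 of them on the opposite strand, upstream of 2 CHRs. Mcm6 had no CHR but 3 E2F matches, 2 of which overlap on opposite strands, and 2 CCAAT boxes in reverse. A CHR was found in 15 of 32 members (46.9%), against 14.3% of the 11957 tested genes with a promoter in the table and 17.9% of all 32851 promoters. CCAAT boxes were found in 26 of 32 members (81.2%), against 42.5% of tested genes and 37.4% of all promoters. E2F matches were found in 9 of 32 members (28.1%), against 9.25% of tested genes and 5.17% of all promoters. All 15 members with a CHR also had a CCAAT box in the window, a combination held by 5.85% of tested genes. The motifs were spread unevenly over the roles, which was not tested. Among the 12 members of licensing, fork and nucleotide supply, 7 had an E2F match and 2 a CHR, namely Mcm2 and Cdc45. Among the 20 members of the other roles, 2 had an E2F match, namely Cdk2 and Cdk1, and 13 a CHR. Cdk1, the kinase that drives entry into mitosis, was the member with both. Ccne1, Birc5 and Nusap1 held none of these letters in the window. A match describes the sequence and does not show that a factor binds there.

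**Figure D1:**
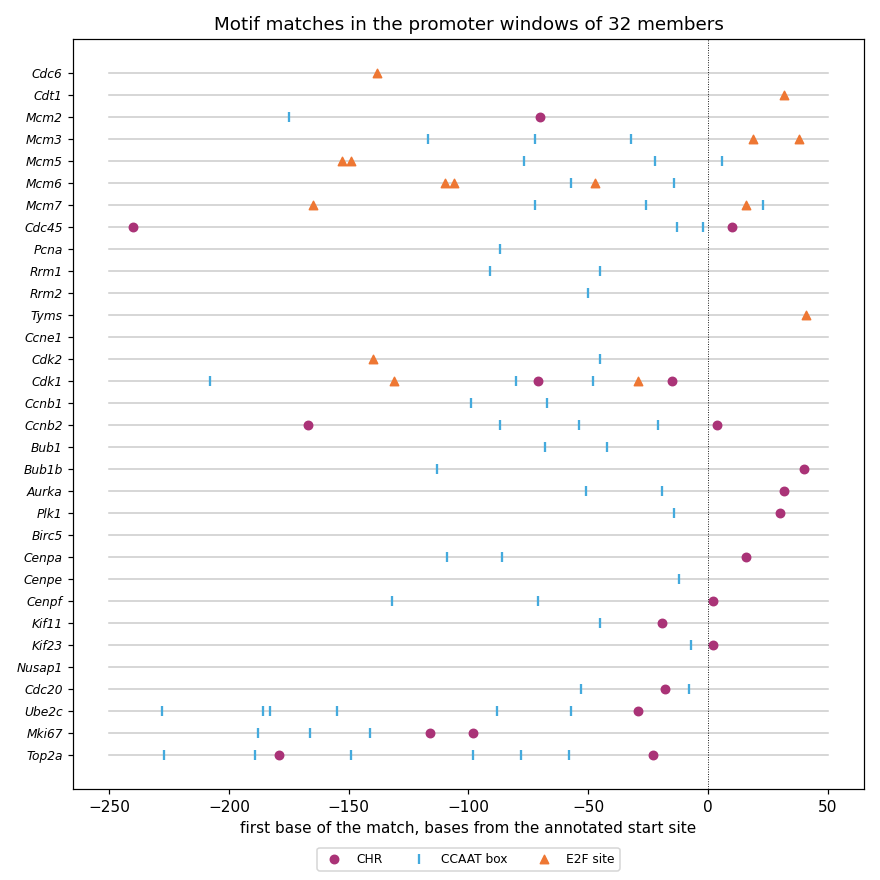
Positions of motif matches in the promoter windows of the 32 members in the RefSeq table, 1 row per gene, with the horizontal axis in bases from the annotated start site (first window for Mcm7, which has 2). E2F matches (triangles) lie mostly in the upper rows of licensing genes and CHR matches (circles) in the lower rows of mitotic genes.

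Few of these genes carried a match to the miR-124-3p seed. The 7-base match GTGCCTT was sought in 1 annotated 3′ UTR per gene, the longest. It was present in 4 of 40 members (10%), against 2188 of 13847 tested genes with an annotated 3′ UTR (15.8%). The members had shorter 3′ UTRs, with a median of 634 bases against 1233. Aurka had 2 matches in a 3′ UTR of 606 bases, and Ccna2, Mcm2 and Mcm4 had 1 each. The sites are shown with the seed match in capitals (28 bases, GRCm38, in the sense of the mRNA), since these are the only members that carry one.
Aurka site, chr2:172356695-172356722, minus strand: ctgccctcaggGTGCCTTgctgagcaac
Aurka site, chr2:172356295-172356322, minus strand: ctacggagcctGTGCCTTgtcttgagac
Ccna2 site, chr3:36565441-36565468, minus strand: gcctttacttgGTGCCTTctggtttgca
Mcm2 site, chr6:88883533-88883560, minus strand: ccacctagccaGTGCCTTcatttgcttg
Mcm4 site, chr16:15624388-15624415, minus strand: atgtaggggctGTGCCTTtgttgtgttg

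The fitted log2 difference between anti-miR-124 and NC was 0.53 for Aurka, 0.12 for Mcm2, −0.08 for Ccna2 and −0.073 for Mcm4, so members with a match lay on both sides of 0. Their median was 0.026, against 0.045 for the 36 members without a match. Over the tested genes with an annotated 3′ UTR, the median was 0.030 for the 2188 with a match, 0.040 for the 357 with at least 2, and 0.003 for the 11659 without.

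The members were expressed at a low to moderate level in every P9 library. Their counts ran from 13 to 1105, and each had at least 10 counts in all 4 libraries. The median of their mean levels was 7.80 TPM, with 3 members under 2 TPM (Cdc6, Cdc25c and Birc5), 23 between 2 and 10, and 14 at 10 or more. Pcna, the sliding clamp of DNA polymerase, was the most abundant member at 148 to 163 TPM. Next was Rrm1, the large subunit of ribonucleotide reductase, at 46.8 to 50.4 TPM, and then Mcm7 at 41.6 to 49.1 TPM. Pcna and Rrm1 together made up 36.7% of the summed level of the 40 members. Rrm2, the small subunit of ribonucleotide reductase whose expression is tied to S phase, was at 8.61 to 10.5 TPM, below Rrm1 in every library. Mitotic members lay on both sides of Rrm2, with Bub1b at 13.5 to 18.0 TPM, Cdk1 at 3.03 to 4.68 TPM, Plk1 at 5.71 to 6.60 TPM and Bub1 at 2.51 to 2.95 TPM. Cdc6, which loads the helicase on origins, was the lowest member at 0.467 to 0.699 TPM. Summed over all 40 members, the level was 533 TPM (NC) and 565 TPM (anti-miR-124) in pair A, and 556 and 583 TPM in pair B. With the lens genes taken out of the total, the sum in the pair A NC library was 572 TPM, above the 565 TPM of its anti-miR-124 partner, and the other sums did not move. The difference within pair A thus changed its sign with the lens RNA of 1 library.

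**Figure D2:**
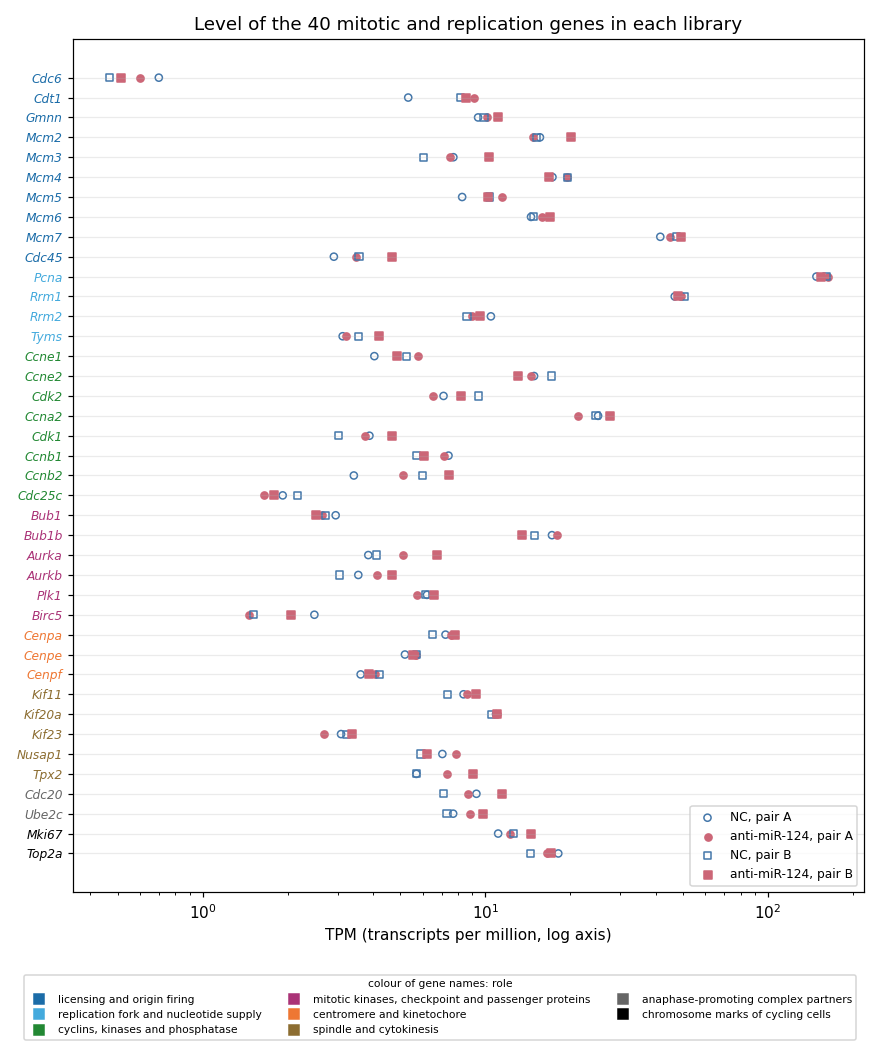
Level of each member in each of the 4 libraries in TPM on a log axis, ordered by role, with open marks for NC, filled marks for anti-miR-124, circles for pair A and squares for pair B. Levels span from under 1 TPM for Cdc6 to over 148 TPM for Pcna, and the marks of a gene lie close together compared with that span.

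No member differed between the groups after adjustment. In edgeR's quasi-likelihood test over 17766 genes, 0 genes in all (0% of those tested) and 0 of 40 members had a Benjamini-Hochberg adjusted p under 0.05, and the lowest adjusted p of a member was 0.99. DESeq2's Wald test called 33 genes in all and 0 members. Without adjustment, 694 genes (3.91%) and 1 of 40 members, Tpx2, had a p under 0.05, and no member did with DESeq2's Wald test, with a replicate block, or when any library other than the pair A anti-miR-124 one was left out. The median log2 difference of the 40 members was 0.045 against 0.001 over all genes tested, with 21 members fitted higher and 19 lower. Values ran from −0.29 (Cdc25c) to 0.53 (Aurka), and 35 of 40 members lay within 1.25-fold of no difference, as did 83.6% of all genes tested. The other 5, Aurka, Tpx2, Ccnb2, Aurkb and Cdt1, were all fitted higher. The directions of all genes tested beyond that limit were not counted. The precision allowed a change of 2-fold to be bounded for most members: the 95% interval lay within 2-fold either way for 34 of 40 (76.6% of all genes tested) and within 1.5-fold for 17 of 40 (60.4%). The interval reached beyond 2-fold for Cdc6, Ccnb2, Cdc25c, Aurka, Aurkb and Birc5, and for these such a change was not bounded by these libraries.

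**Figure D3:**
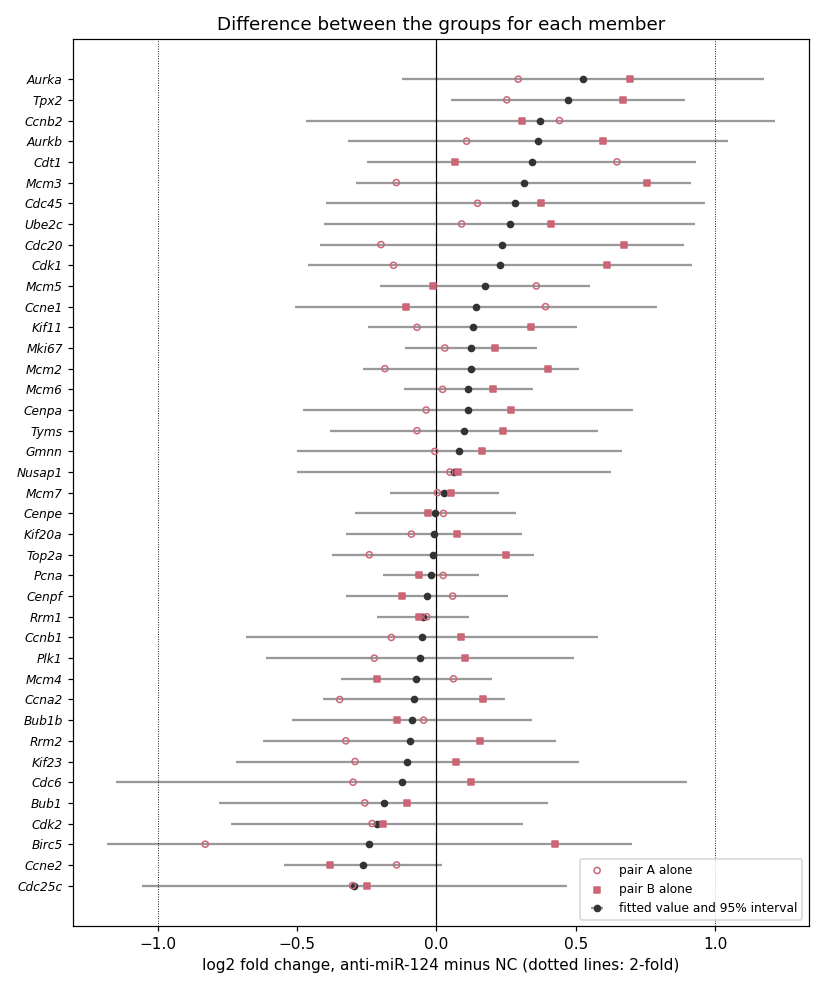
Fitted log2 fold change (anti-miR-124 minus NC) of each member with its 95% interval from edgeR (n = 2 libraries per group), and the difference within each pair as separate marks. The intervals of all members except Tpx2 include 0, and pair A and pair B lie on opposite sides of 0 for many members.

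The pairs moved many members differently, as they did genes in general. After scaling to library size with edgeR's TMM factors (CPM), 11 of 40 members were higher with anti-miR-124 in both pairs (22.8% of all genes tested). Another 6 were lower in both (24.0%), and 23 went opposite ways, as did 9464 of all 17766 genes tested. When levels were scaled to TPM, which do not correct for the lens RNA of 1 NC library, the split was 16 higher and 4 lower. Both anti-miR-124 libraries lay above both NC libraries for 6 members (16.5% of all genes tested) and below both for 4 (16.8%). In pair A, 17 members were higher with anti-miR-124 and the median log2 difference was −0.041. Of all 17766 genes tested, 8567 were higher there, with a median of −0.009. In pair B, 28 members were higher and the median was 0.14. There, 8985 of all genes tested were higher, with a median of 0.003. Among the 11990 tested genes inside the members' range of mean log2 CPM, the higher ones numbered 5357 (median −0.03) for pair A and 6403 (median 0.019) for pair B. The differences between groups were of the size of those within a group: the median absolute log2 difference of a member was 0.15 in pair A and 0.20 in pair B, against 0.18 between the NC libraries and 0.20 between the anti-miR-124 libraries. The pair B anti-miR-124 library was the highest of the 4 for 18 of 40 members, against 30.6% of all genes tested. This is the library with the raised sum of microglia and macrophage markers, Gfap and Lyz2 given above, and the part of those cells in the members' levels was not tested. Without that library, the median log2 difference of the members was 0.031, and without the pair A NC library with its lens RNA it was 0.11, with 0 members called in either fit.

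**Figure D4:**
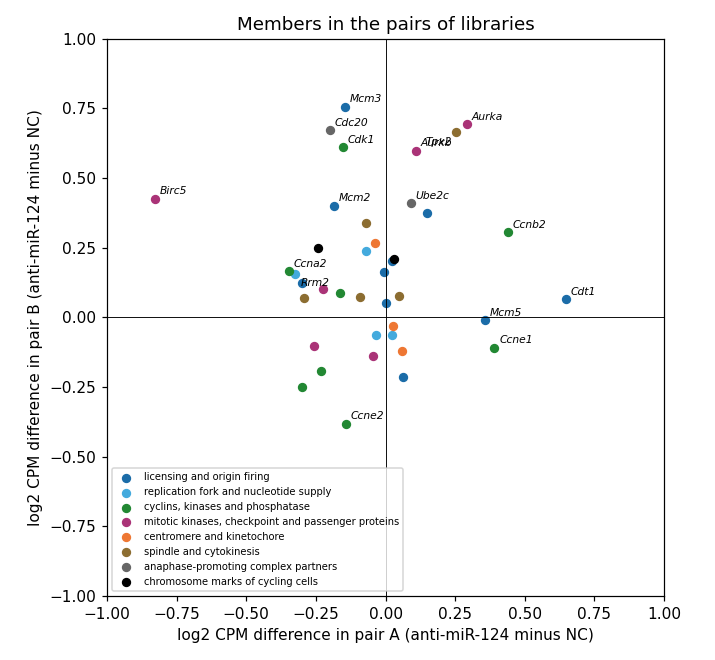
Difference of each member in log2 CPM, anti-miR-124 minus NC, in pair A (horizontal) and pair B (vertical), coloured by role. The points fall in all quadrants, with 11 members higher in both pairs, 6 lower in both and 23 in the quadrants of opposite sign, among them Birc5, Mcm3 and Cdc20.

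Of the 10 licensing genes, 8 were fitted higher, with a median log2 difference of 0.12, but 0 passed the test. Cdt1, which recruits the helicase to origins and is destroyed in S phase, had 62 (NC) and 104 (anti-miR-124) counts in pair A and 97 and 106 in pair B. Its pair A NC library stood below the other 3, and the groups did not overlap (log2 difference 0.34, 95% interval −0.25 to 0.93). Gmnn, which encodes the Cdt1 inhibitor geminin, had 54 and 57 counts in pair A and 58 and 68 in pair B (0.082, −0.50 to 0.66). The 6 MCM genes encode the ring of the replicative helicase, and their fitted values lay on both sides of 0. Mcm6 had 341 and 367 counts in pair A and 356 and 428 in pair B, without overlap of the groups (0.11, −0.12 to 0.35). Mcm7 had 656 and 697 counts in pair A and 767 and 830 in pair B, and the groups overlapped (0.028, −0.17 to 0.22). Mcm3 had 118 and 113 counts in pair A and 95 and 169 in pair B (0.31, −0.29 to 0.91). Its value thus rested on pair B, whose anti-miR-124 library was the highest and whose NC library the lowest. Mcm2 rested on pair B too, with 279 and 260 counts in pair A against 278 and 384 in pair B (0.12, −0.26 to 0.51). Mcm5 was higher in pair A alone, with 152 and 207 counts there and 194 and 201 in pair B (0.17, −0.20 to 0.55). Mcm4 had 329 and 364 counts in pair A and 380 and 342 in pair B, opposite ways (−0.073, −0.34 to 0.20). Cdc45, the helicase partner that joins when an origin fires, had 39 and 46 counts in pair A and 49 and 67 in pair B, with groups that overlapped (0.28, −0.40 to 0.96). Ufd1l, which overlaps Cdc45 on the opposite strand, had 1004 to 1198 counts. Cdc6 had 13 to 19 counts in every library, and a change of 2-fold was not bounded (−0.12, −1.15 to 0.90).

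Of the 4 genes of the replication fork and nucleotide supply, 1 was fitted higher and 3 lower, with a median log2 difference of −0.034 and 0 called. Pcna and Rrm1 had the smallest SEs of all members, 0.072 and 0.069. Pcna had 992 and 1069 counts in pair A and 1105 and 1104 in pair B, with a log2 difference of −0.019 (95% interval −0.19 to 0.15) and opposite signs in the pairs. Rrm1 had 992 and 1026 counts in pair A and 1095 and 1094 in pair B, which after scaling was lower with anti-miR-124 in both pairs without overlap, by a very small amount (−0.049, −0.21 to 0.12). Rrm2 had 121 and 102 counts in pair A and 102 and 119 in pair B (−0.096, −0.62 to 0.43), so that the pair A NC library and the pair B anti-miR-124 library were the high ones. Tyms, thymidylate synthase, had 113 and 114 counts in pair A and 132 and 163 in pair B (0.098, −0.38 to 0.58). Counts of the pseudogene copies of Pcna and Tyms were at most 8 and 1 per library, so little of either gene was listed under a copy.

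Among cyclins and their kinases, 3 of 8 were fitted higher and 5 lower, with a median of −0.066 and 0 called. Ccne2, cyclin E2 of the G1/S transition, had 271 and 260 counts in pair A and 319 and 255 in pair B. Both anti-miR-124 libraries were below both NC libraries (−0.26, −0.55 to 0.020), and Ints8, which overlaps it on the opposite strand, had 1164 to 1315 counts. Ccne1, cyclin E1, went the other way in pair A, with 42 and 59 counts there and 56 and 54 in pair B (0.14, −0.51 to 0.79). Cdk2, the partner of cyclins E and A, had 100 and 90 counts in pair A and 136 and 124 in pair B. It was lower in both pairs, but the groups overlapped because the pairs differed more than the groups (−0.21, −0.74 to 0.31). Ccna2, cyclin A2 of S and G2 phase, had 447 and 372 counts in pair A and 450 and 527 in pair B, opposite ways (−0.080, −0.41 to 0.25). Exosc9, which overlaps Ccna2 on the opposite strand, had 576 to 654 counts. Cdk1 had 59 and 56 counts in pair A and 47 and 76 in pair B (0.23, −0.46 to 0.92). Ccnb1, cyclin B1, its mitotic partner, had 91 and 86 counts in pair A and 72 and 80 in pair B (−0.052, −0.68 to 0.58). Ccnb2, cyclin B2, had 28 and 41 counts in pair A and 50 and 65 in pair B, higher in both pairs with groups that overlapped (0.37, −0.47 to 1.21). Cdc25c, the phosphatase that activates Cdk1, had 26 and 22 counts in pair A and 30 and 26 in pair B (−0.29, −1.06 to 0.47), lower in both pairs and the lowest fitted value of the members. The fitted values of the mitotic cyclins and their kinase thus lay on both sides of 0.

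Of the 6 mitotic kinases, checkpoint and passenger proteins, 2 were fitted higher and 4 lower, with a median of −0.074 and 0 called. Aurka (chr2:172356190-172370706 in the deposited positions) had 42 and 55 counts in pair A and 46 and 79 in pair B. Both anti-miR-124 libraries lay above both NC libraries, and the one of pair B was the highest (0.53, SE 0.27, −0.12 to 1.17, edgeR adjusted p = 0.99). Cstf1, which overlaps Aurka on the opposite strand, had 535 to 664 counts. Aurkb, the kinase of the chromosomal passenger complex, had 41 and 47 counts in pair A and 36 and 58 in pair B, also without overlap (0.36, −0.32 to 1.05). Birc5, survivin, which anchors Aurkb in that complex, did not follow it, with 45 and 26 counts in pair A and 28 and 40 in pair B (−0.24, −1.18 to 0.70). It had the widest split between the pairs, −0.83 in pair A and 0.43 in pair B on the log2 scale. Plk1, polo-like kinase 1, had 73 and 66 counts in pair A and 74 and 83 in pair B (−0.060, −0.61 to 0.49). The spindle checkpoint kinase Bub1 had 68 and 60 counts in pair A and 64 and 62 in pair B, lower in both without overlap (−0.19, −0.78 to 0.40). Bub1b, which encodes the checkpoint protein BubR1, had 336 and 345 counts in pair A and 299 and 283 in pair B, which after scaling was lower in both pairs with overlap (−0.088, −0.52 to 0.34). At 13.5 to 18.0 TPM it was well above Bub1 per length in every library.

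Of the 3 centromere genes, 1 was fitted higher and 2 lower, all close to 0. Cenpe, a kinesin that moves chromosomes to the spindle equator, had 216 and 233 counts in pair A and 243 and 248 in pair B (−0.004, −0.29 to 0.28). Cenpf, a large kinetochore protein of G2 and M phase, had 222 and 245 counts in pair A and 265 and 254 in pair B (−0.033, −0.32 to 0.26). Both were thus bounded within 1.5-fold. Cenpa, the histone H3 variant of centromeres, had 62 and 64 counts in pair A and 57 and 72 in pair B (0.11, −0.48 to 0.70).

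Of the 5 spindle genes, 3 were fitted higher and 2 lower, with a median of 0.062. Tpx2 (chr2:152847964-152895321), which activates Aurka on spindle microtubules, had 132 and 167 counts in pair A and 135 and 225 in pair B. The NC libraries were close to each other, and both anti-miR-124 libraries lay above them. The log2 difference was 0.47 (SE 0.18, 95% interval 0.053 to 0.89), with an edgeR adjusted p of 0.99. This was the only interval among the members that excluded 0 in this fit. Its unadjusted p was also under 0.05 in edgeR's test with DESeq2 size factors, total counts or upper quartile scaling. With DESeq2's Wald test or a replicate block it was not. The log2 difference was 0.25 in pair A and 0.67 in pair B. Aurka and its activator Tpx2 were the members with the highest fitted values, each larger in pair B. Without the pair B anti-miR-124 library, which is also the one high in microglia and leukocyte markers, the log2 difference was 0.33 for Aurka and 0.33 for Tpx2, and neither was called. The intervals of the other 4 spindle genes included 0. Kif11, the motor that separates spindle poles, had 214 and 216 counts in pair A and 192 and 254 in pair B (0.13, −0.24 to 0.50). Nusap1, a microtubule bundling protein, had 114 and 125 counts in pair A and 98 and 108 in pair B, higher in both with groups that overlapped (0.062, −0.50 to 0.63). Kif23, a motor of the central spindle in cytokinesis, had 57 and 49 counts in pair A and 61 and 67 in pair B (−0.10, −0.72 to 0.51). Kif20a, another motor of cytokinesis, had 226 and 225 counts in pair A and 223 and 245 in pair B (−0.010, −0.33 to 0.31). Its counts are uncertain, since Brd8 and Cdc23 overlap it on the opposite strand with 1616 to 2618 counts. The sources used here do not give the strand setting of the counting. The counts of Cdc45, Ccne2, Ccna2, Aurka and Cdc20, which also overlap counted genes on the opposite strand, are uncertain in the same way.

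Both partners of the anaphase-promoting complex were fitted higher, mostly through pair B. Cdc20, its activator at anaphase, had 88 and 81 counts in pair A and 69 and 116 in pair B (0.24, −0.42 to 0.89). Elovl1, which overlaps Cdc20 on the opposite strand, had 110 and 117 counts in pair A and 114 and 170 in pair B. Ube2c, the ubiquitin-conjugating enzyme of the complex, had 38 and 43 counts in pair A and 37 and 52 in pair B, without overlap of the groups (0.26, −0.40 to 0.93). Of the marks of cycling cells, Mki67 had 595 and 644 counts in pair A and 690 and 833 in pair B. It was higher in both pairs, but the pair B NC library exceeded the pair A anti-miR-124 library, so the groups overlapped (0.12, −0.11 to 0.36). Top2a, the topoisomerase that untangles chromosomes, had 503 and 451 counts in pair A and 410 and 509 in pair B, opposite ways (−0.011, −0.37 to 0.35). For both marks a change of 1.5-fold lay outside the 95% interval.

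The other genes of the cell cycle gave 0 calls in each of 3 lists and 0 genes with an unadjusted p under 0.05. Of 49 other replication genes 48 were tested, with a median log2 difference of 0.015. The 3 with the lowest p were Tipin, a fork protection factor (−0.23, SE 0.098), Rfc2, a subunit of the clamp loader (0.18, SE 0.083), and Pola1, the catalytic subunit of the primase-polymerase (−0.27, SE 0.14). All 65 other mitotic genes were tested, with a median of −0.057, 25 fitted higher and 40 lower. Here Cdca2, a chromosome-bound phosphatase regulator, had 40 and 62 counts in pair A and 33 and 61 in pair B (0.67, SE 0.29), whereas the kinesin Kif2c (−0.60, SE 0.30) and the kinetochore gene Cenpk (−0.61, SE 0.32) were fitted lower. Of 26 genes of G1 control and its brakes 24 were tested, with a median of −0.013. The 3 with the lowest p were the retinoblastoma gene Rb1 (−0.16, SE 0.068), Cdk4 (0.18, SE 0.078) and Ccnd3 (0.17, SE 0.088). Cdk4, the G1 kinase, had 1402 and 1561 counts in pair A and 1465 and 1866 in pair B, above its NC partner in both pairs. Ccnd1, the cyclin D1 of retinal progenitors, had 3158 and 3025 counts in pair A and 2989 and 2808 in pair B, lower in both (−0.15, −0.44 to 0.14). Cdk6 was nearly level (0.014, −0.18 to 0.21). Among the inhibitors, the log2 difference was −0.12 for Cdkn1a (p21), −0.035 for Cdkn1b (p27) and −0.23 for Cdkn1c (p57). Cdkn1c was highest in the pair A NC library, at 1167 counts against 877 to 930 in the others.

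Of 11 listed markers of retinal progenitors, 5 were fitted higher and 6 lower, with a median log2 difference of −0.005 and 0 called. Fgf15 had the highest fitted value of that list (0.17, interval −0.63 to 0.98) and Sfrp2 the lowest (−0.30, interval −0.82 to 0.22). These were also its markers with the fewest counts, 29 to 43 and 77 to 115 per library. The other markers of the list had at least 267 counts in every library.

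**Figure D5:**
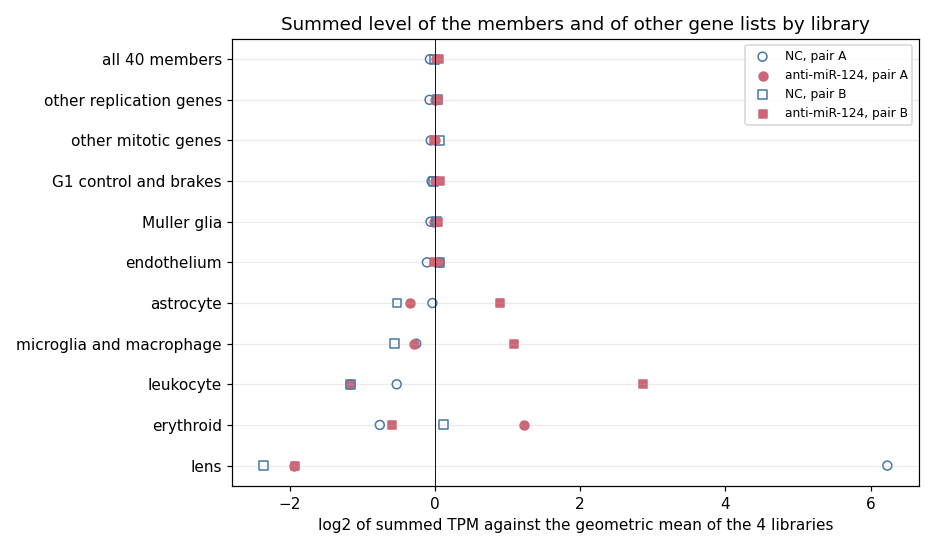
Summed TPM of the members, of 3 other cell cycle lists and of cell type markers in each library, as log2 of the ratio to the geometric mean of the 4 libraries. The members and the cell cycle lists lie close to 0 in all libraries, while lens genes stand apart in the pair A NC library, erythroid genes in the pair A anti-miR-124 library, and the microglia, leukocyte and astrocyte sums in that of pair B.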

How the data were processed

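Whole-retina mRNA of 4 libraries was measured, 2 in the anti-miR-124 group and 2 in the NC group. The deposited table gives raw read counts per gene, a gene length and 4 columns of RPKM, which were not used. The submitters' processing notes name HISAT2 and mm9, with no role given, and the counting tool is not given in the sources used here. The positions in the table overlapped those of GRCm38 for 99.8% of 36837 matched symbols and for all 40 members, and were read as GRCm38. Columns were assigned to groups by the eye in their headers.

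Counts were tested with edgeR 4.0.16 (R 4.3.3; TMM scaling, filterByExpr, quasi-likelihood test, no covariate), with Benjamini-Hochberg adjustment over all 17766 genes that passed the filter, all 40 members included, at a threshold of 0.05. Intervals are the fitted log2 difference with its moderated error. TPM was computed from counts and deposited lengths. Differences within pairs are of log2 CPM after TMM scaling, with a prior count of 2. DESeq2 1.42.0, limma-voom 3.58.1, other scalings and filters, a replicate block and leaving out each library were alternatives. Motifs were searched in RefSeq promoters (GRCm38.p6) and seed matches in GENCODE 3′ UTRs, with Python 3.11.15.

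All members are named by role. Of each other cell cycle list, the 3 genes with the smallest unadjusted p are named, with Ccnd1, Cdk4, Cdk6, Cdkn1a, Cdkn1b and Cdkn1c whatever their values. The members, lists and markers were chosen with earlier results of these data known. The summed level of the progenitor marker list is not reported here. Of the listed symbols, 3 were matched through an older symbol. Depth was 16317239 to 18726963 counts per library.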

Additional observations from a re-analysis of the deposited data

How the results depend on the processing

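The count of members with an adjusted p under 0.05 was 0 under every alternative run. The count over all genes was 0 with edgeR and moved to 379 with no filter on low counts and to 33 with DESeq2's Wald test. It ranged from 0 to 256 when 1 library was left out (256 without the pair A anti-miR-124 library, 57 without the pair B NC library, 12 without the pair B anti-miR-124 library, 0 without the pair A NC library). In these fits the lone library is assumed to vary like those of the other group. The median log2 difference of the members ranged from −0.014 to 0.11 over those fits, below 0 without the pair B NC library, and 5 to 10 members changed sign. Without the pair A anti-miR-124 library, 4 members had an unadjusted p under 0.05. The log2 ratio of the members' summed TPM was 0.076, and 0.026 with the lens genes taken out.

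With the pair number as a replicate block, 0 genes and 0 members were called and the median of the members was 0.046, so the block changed no call. Deviations of libraries with the same number correlated at −0.16, and those with crossed numbers at 0.16. With 2 libraries per group these values mirror each other, so they cannot decide whether the number is a pairing. With the pairing crossed, an alternative chosen after seeing the data, 160 genes and 0 members were called.

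Under the other scalings, filters and tools, the median of the members was 0.045 to 0.053 and at most 1 member changed sign. For 6 members, each under 100 counts per library, the 95% interval exceeds 2-fold, and depth was not told apart from the spread between libraries.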
